A study of Mus musculus with 4 samples.

Results

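Macrophages are the most abundant leukocytes of the healthy mouse heart. One population settles before or around birth, renews itself in the tissue and carries the resident markers Lyve1, Timd4 and Folr2. Another comes from blood monocytes that carry the chemokine receptor CCR2 and enter the heart from the circulation. Pressure overload is known to bring in monocytes and to expand macrophages, and both populations take part in clearing debris and in fibrosis.

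The macrophage and monocyte genes described here are 33 genes out of 21739 that a probe of the array could be matched to. Their probes, 43 in all, were found through the RefSeq or Ensembl transcript that names each probe, and the brightest probe by mean signal stood for a gene. All 33 genes had a probe, 26 of them a single one. They fall into 12 general macrophage genes (with the growth factor Csf1), 6 resident markers, 4 markers of recruited cells, 4 genes of the Fc receptor and ITAM signalling group, 5 genes of sensing and scavenging, and 2 genes of alternative activation.

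RNA came from whole hearts of male C57BL/6J mice after a sham operation or transverse aortic constriction (TAC), a band on the aortic arch that raises the pressure load of the left ventricle. The conditions were measured on 1 array each, namely sham at 2 weeks, TAC at 2 weeks, sham at 8 weeks and TAC at 8 weeks. The time points stand for the hypertrophic response and for heart failure. By the labels, mice of the 2-week groups were 10 weeks old and those of the 8-week groups 16 weeks old, whereas the study's methods give 12 weeks at surgery. No mouse carried a genetic change, and each array held RNA mixed from 4 to 6 mice.

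One pool per condition leaves no replicate error, so TAC could not be tested against sham within a time point. Levels are given as multiples of the array's 75th percentile, and a gene was counted as changed when it differed over 2-fold and was well above background on the brighter array. The spread between spots of the same probe, taken from probes printed 10 times on the array, gave an SD of 0.07 for a log2 change of genes above the 75th percentile, 0.175 for genes between 0.25 times the percentile and the percentile itself, and 0.296 for dimmer genes. That SD leaves out all differences between mice and between pools. The 4 arrays had between 54.73% and 58.54% of their probes well above background, and no spot was saturated. The 5 cardiomyocyte markers were well above background on every array, with Myh6, the main adult myosin heavy chain, at levels of 1499 to 1854.

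Among the 33 genes, 29 were well above background on all 4 arrays. Spi1, which encodes the macrophage transcription factor PU.1, and Arg1, which encodes arginase 1, were not well above background on any. Timd4 was measured on both 8-week arrays only, and the brightest probe of Msr1 on both 2-week arrays only.

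At 2 weeks, 29 of the 30 genes measured in that pair were higher in TAC than in sham, and the median log2 change was 0.53, or 1.44-fold. Over all 15399 genes measured in the same pair, 50.1% were higher and the median was 0.0. At 8 weeks, 26 of 30 were higher with a median of 0.41, or 1.33-fold, against 48.5% of 15462 genes and a median of -0.01. The individual changes were modest. A single gene, the fractalkine receptor Cx3cr1, passed 2-fold upwards at 2 weeks and none did at 8 weeks, where all genes gave 2.45% and 3.31%. A single gene, Retnla, passed 2-fold downwards at each time, where all genes gave 1.21% and 2.06%, and 0.247% fell over 2-fold at both times. No member passed 2-fold upwards at both times, as 0.813% of all genes did. A threshold of 1.5-fold took in 12 of the 30 genes at 2 weeks (background 6.79%) and 8 of 30 at 8 weeks (background 7.27%) on the higher side, and Retnla alone on the lower side. The 6 genes past 1.5-fold upwards at both times, 6 of the 12 and 6 of the 8 and background 2.73%, were Ctss, Cx3cr1, Lgals3, Cd14, Cd86 and Trem2. Of the 29 genes measured in both pairs, 26 were higher at both times (background 33.8%). In bulk tissue, more cells of a type and more RNA per cell cannot be told apart.

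The sham arrays show how far pools differ with no constriction, although they also differ in age. Sham at 8 weeks over sham at 2 weeks gave a median log2 difference of 0.01 over the 31 genes measured, with single genes from -0.60 to 1.13. For 22 of the 29 genes measured on all arrays (75.9%), both TAC arrays were above both sham arrays, and this was so for 23.8% of 14286 genes. Retnla had both TAC arrays below both sham arrays, as 25.7% of all genes did. Csf1, Folr2, Ccr2, Chil3, Clec7a and Gpnmb overlapped.

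A fit over the 4 arrays with surgery and time as additive terms, added after the values were seen, takes the time points as blocks and leaves 1 residual degree of freedom. With limma (two-sided) and Benjamini-Hochberg adjustment, 0 of 15852 genes passed an adjusted p of 0.05 in either direction (0%), and the lowest adjusted p among the 31 measured members was 0.257. At an unadjusted p under 0.05, 20 of the 31 members were higher and 1, Retnla, was lower, against 10.0% and 7.45% of all genes. Any difference between the 2-week and the 8-week response counts as error in this fit.

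**Figure D1:**
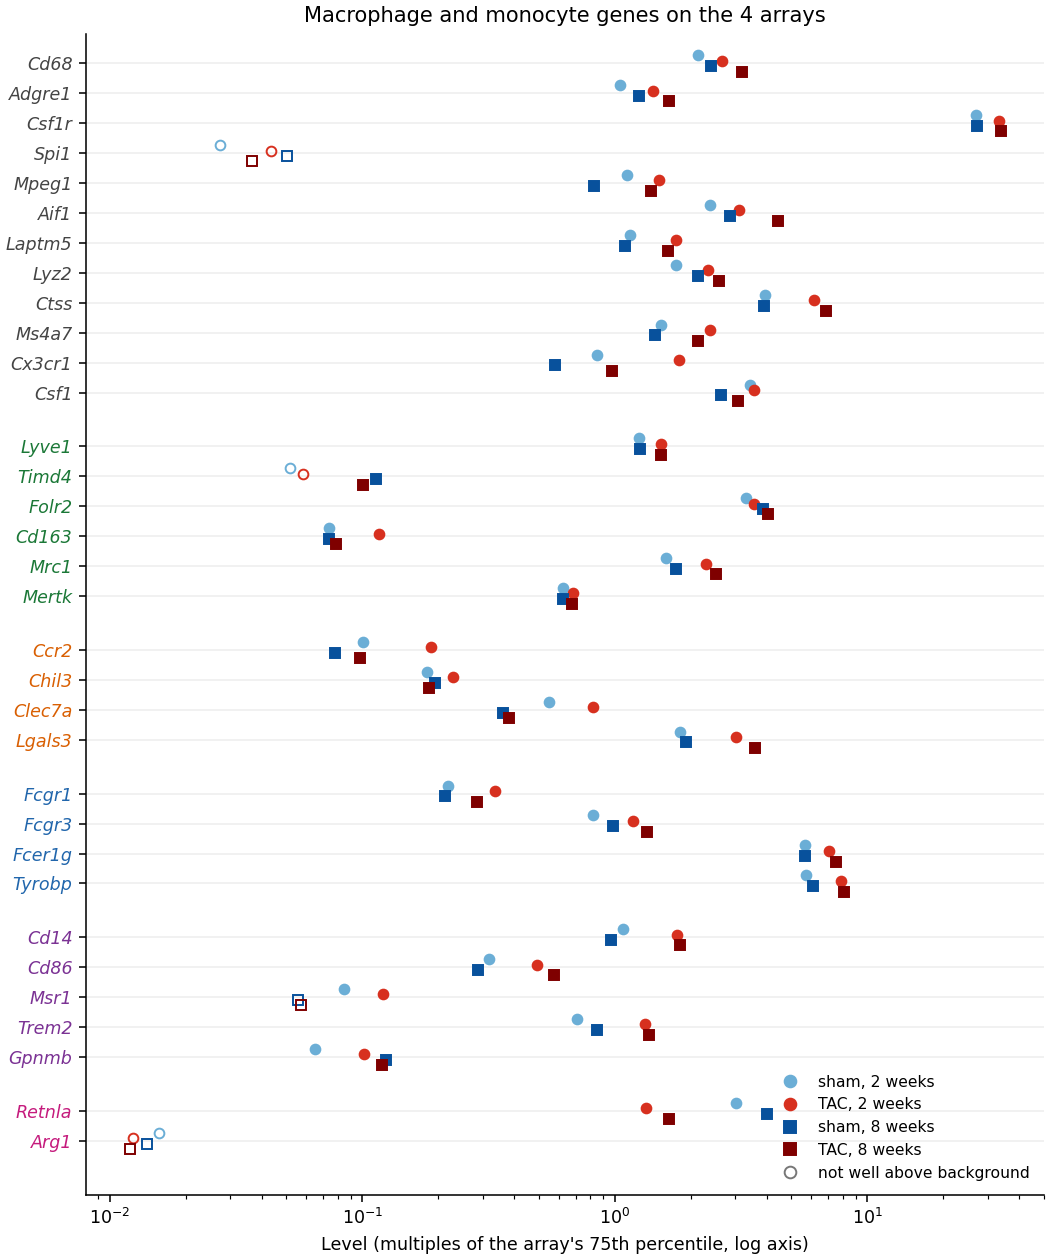
Level of each of the 33 genes on the 4 arrays, as multiples of the array's 75th percentile on a log axis. Gene names are coloured by role, circles are 2 weeks, squares are 8 weeks, and open symbols were not well above background. Positions are to be compared within a gene, since probes differ in brightness. TAC symbols lie to the right of sham symbols for most genes, and Retnla runs the other way.

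Retnla encodes RELM-alpha, a secreted protein that cytokines of the IL-4 and IL-13 type induce in macrophages through STAT6, and it is known as a gene of alternative activation. Its level was 3.02 in sham and 1.33 in TAC at 2 weeks, and 4.02 in sham and 1.64 in TAC at 8 weeks. Both TAC arrays were lower than both sham arrays, and no value overlapped. Retnla thus fell to 0.442 of sham at 2 weeks (log2 -1.18) and to 0.407 of sham at 8 weeks (log2 -1.30). The sham arrays differed by 0.41 in log2, and the spot SD of such a change is 0.07. By the smaller of its falls, Retnla ranked 14 among 14286 genes measured on all arrays. With the 2-week sham array as the comparator, the fall of TAC at 8 weeks was -0.88 in log2 and so under 2-fold.

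No other measured gene of the same programme fell over 2-fold. Chil3, another gene induced by IL-4 that also marks monocytes, had levels of 0.18 and 0.228 at 2 weeks and 0.194 and 0.184 at 8 weeks for sham and TAC. Mrc1, the mannose receptor, was 1.44-fold higher at both times. A further 8 genes of IL-4 signalling and response (Il4ra, Il13ra1, Stat6, Mgl2, Clec10a, Ccl17, Ccl24 and Socs1), chosen after the values of Retnla were seen, had a median log2 change of 0.08 over 7 measured genes at 2 weeks and 0.08 over 8 at 8 weeks, with none over 2-fold lower. In sign, 2 of 7 were lower at 2 weeks and 4 of 8 at 8 weeks, and Ccl24, a chemokine, was lower at both (-0.13 and -0.17). Stat6 itself changed by -0.01 and -0.03 in log2. Of the receptor genes, Il4ra changed by 0.08 and 0.88 (second probe -0.14 and 0.35). Il13ra1, which was dim, was higher by 0.63 and 0.46. Ccl17, a chemokine of that programme, was well above background on the 8-week TAC array alone and was at least 2.51-fold higher there than in sham.

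Fat tissue also makes Retnla. Of 6 adipocyte genes chosen after the values of Retnla were seen, Adipoq, Plin1, Cidec and Lep were not well above background on any array, and these include the defining markers. The summed level of the list was 0.53 in sham and 0.355 in TAC at 2 weeks, and 0.416 in sham and 0.368 in TAC at 8 weeks. Cfd, which encodes adipsin, had log2 changes of -0.97 and 0.18, and Retn, the resistin gene, of -0.42 and -0.68. The part of fat in the fall of Retnla was not tested.

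The 250 bases before the start site are shown for Retnla, which fell at both times, and for the genes over 1.5-fold higher at both times whose promoter is in the RefSeq table used (GRCm38.p6), so that the gene that moved down can be read against those that moved up. The table held a promoter for 24 of the 33 genes, and Cd14 and Cd86 were not among them. Retnla lies at chr16:48842359-48842608 on the plus strand, Ctss at chr3:95526536-95526785 on the plus strand, Lgals3 at chr14:47373610-47373859 on the plus strand, Trem2 at chr17:48346151-48346400 on the plus strand and Cx3cr1 at chr9:120068297-120068546 on the minus strand. Sequences run 5′ to 3′ along the gene, and capitals mark matches, on either strand, to the PU.1 motif GAGGAAGT or its shorter core GAGGAA, which the longer one contains, to the STAT6 spacing, which is TTC and GAA with 4 bases of any kind between them, and to the C/EBP motif TTGCNNAA.
Retnla: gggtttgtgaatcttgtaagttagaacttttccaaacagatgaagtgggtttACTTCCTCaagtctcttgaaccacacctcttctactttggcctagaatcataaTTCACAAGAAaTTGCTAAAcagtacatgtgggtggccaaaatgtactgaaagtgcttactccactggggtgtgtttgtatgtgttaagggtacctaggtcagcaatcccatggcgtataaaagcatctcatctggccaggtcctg
Ctss: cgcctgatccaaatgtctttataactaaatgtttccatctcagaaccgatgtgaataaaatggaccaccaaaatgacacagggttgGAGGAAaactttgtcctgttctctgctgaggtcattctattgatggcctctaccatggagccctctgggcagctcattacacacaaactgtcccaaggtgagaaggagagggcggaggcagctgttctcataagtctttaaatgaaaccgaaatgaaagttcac
Lgals3: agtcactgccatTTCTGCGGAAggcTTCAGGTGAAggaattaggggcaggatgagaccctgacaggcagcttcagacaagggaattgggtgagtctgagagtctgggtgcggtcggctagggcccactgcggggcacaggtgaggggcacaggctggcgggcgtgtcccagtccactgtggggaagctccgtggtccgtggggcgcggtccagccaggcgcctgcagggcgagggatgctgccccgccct
Trem2: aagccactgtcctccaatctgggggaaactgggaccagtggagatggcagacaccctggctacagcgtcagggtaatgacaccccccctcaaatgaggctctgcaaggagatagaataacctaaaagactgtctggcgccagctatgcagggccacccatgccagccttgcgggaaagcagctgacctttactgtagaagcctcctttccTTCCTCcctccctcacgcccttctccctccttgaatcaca
Cx3cr1: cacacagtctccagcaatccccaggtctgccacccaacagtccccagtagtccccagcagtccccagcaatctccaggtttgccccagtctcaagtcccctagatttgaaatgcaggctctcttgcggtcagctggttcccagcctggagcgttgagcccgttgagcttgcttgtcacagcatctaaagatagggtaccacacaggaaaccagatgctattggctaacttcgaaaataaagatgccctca

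The Retnla promoter held a match to every one of these motifs. Counted from the start site, ACTTCCTC (the PU.1 motif on the other strand) stood at -198 to -191, the STAT6 match TTCACAAGAA at -145 to -136 and the C/EBP match TTGCTAAA at -134 to -127. It was the only one of the 24 genes with the full PU.1 motif in this window, which 2.79% of the 27025 genes in the table have. The shorter core was in 10 of the 24 (25.9% of all genes), the STAT6 spacing in 4 of the 24 (6.76%), namely Ms4a7, Clec7a, Lgals3 and Retnla, and the C/EBP motif in 3 of the 24 (10.8%), namely Cd68, Fcgr3 and Retnla. Lgals3, with 2 STAT6 matches, was higher in TAC while Retnla was lower. The Cx3cr1 window held no match to these letters. A match of letters is a description of the sequence and not a measured binding site.

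**Figure D2:**
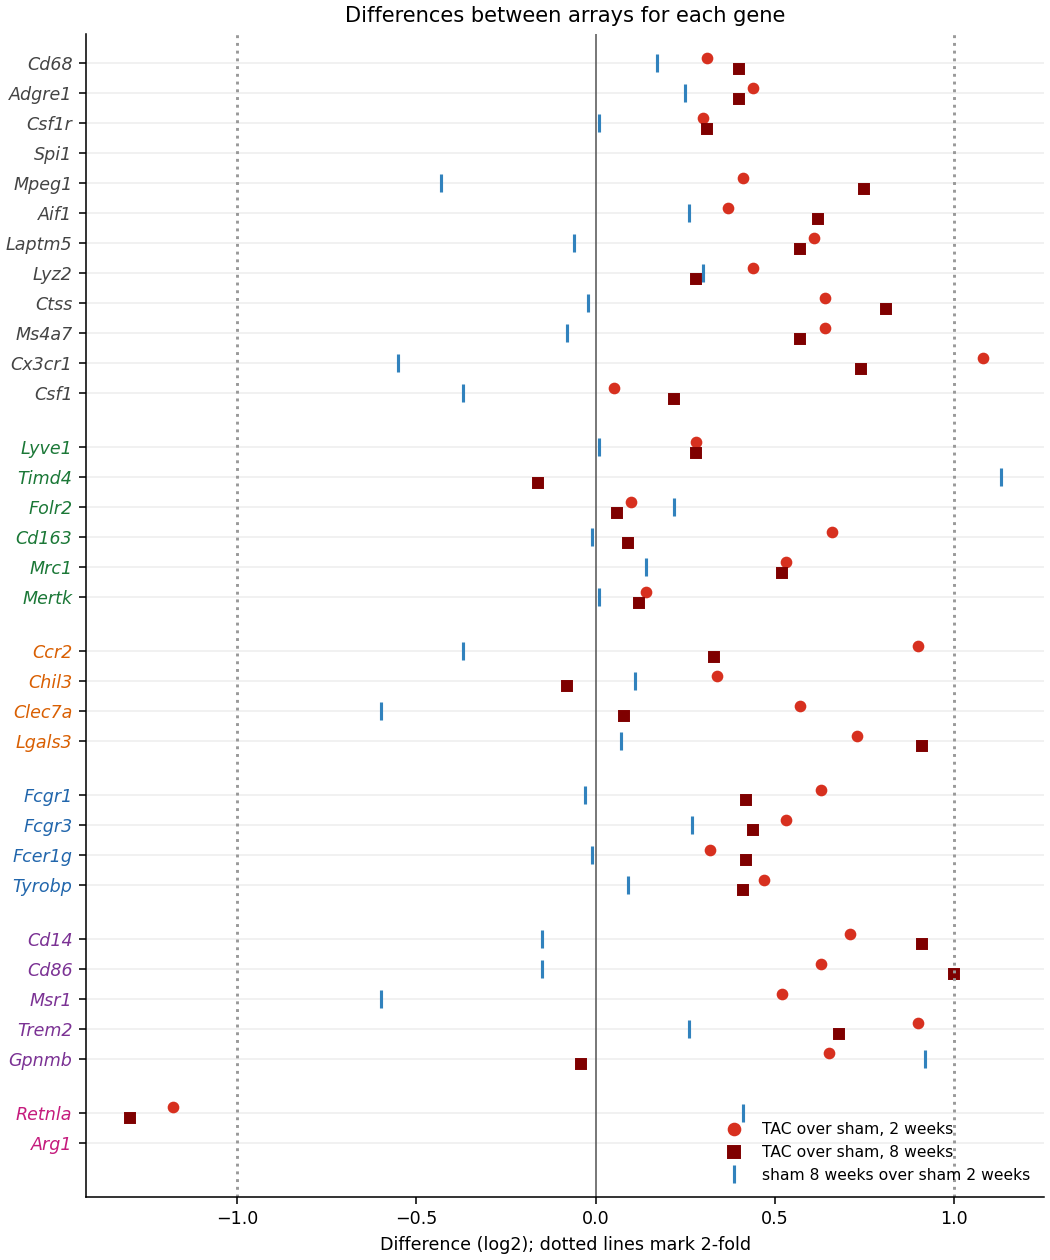
Log2 difference of each gene between arrays. Circles are TAC over sham at 2 weeks, squares TAC over sham at 8 weeks and vertical ticks sham at 8 weeks over sham at 2 weeks, with dotted lines at 2-fold. Pairs in which neither array was well above background are left out. Most circles and squares lie between 0 and 1, Cx3cr1 passes the right-hand line at 2 weeks, and Retnla passes the left-hand line at both times.

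General macrophage genes were higher in TAC throughout. All 11 measured members were higher at both times, with medians of 0.44 at 2 weeks and 0.57 at 8 weeks. Their summed level went from 46.3 in sham to 59.8 in TAC at 2 weeks and from 46.3 to 61.6 at 8 weeks. Most of that sum is the brightest probe of Csf1r (27 to 33.7). Cx3cr1, whose receptor binds fractalkine and marks patrolling monocytes and tissue macrophages, was at 0.851 in sham and 1.80 in TAC at 2 weeks, and at 0.582 in sham and 0.972 in TAC at 8 weeks. It rose 2.11-fold at 2 weeks (log2 1.08), and it was 1.67-fold higher at 8 weeks. Its second probe gave log2 changes of 1.01 and 0.88. The 8-week sham level was lower than the 2-week one by 0.55 in log2, so the 8-week TAC level stood only slightly above the 2-week sham level.

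Ctss, the lysosomal protease cathepsin S that processes the invariant chain in antigen presentation, was at 3.95 in sham and 6.17 in TAC at 2 weeks, and at 3.90 and 6.83 at 8 weeks. The sham levels lay close together (log2 -0.02), and TAC was 1.56-fold and 1.75-fold higher. Ms4a7, a membrane protein of mature macrophages, was 1.56-fold and 1.49-fold higher, and Laptm5, a lysosomal protein of leukocytes, 1.52-fold and 1.48-fold. Mpeg1, the pore-forming perforin-2, was 1.33-fold and 1.68-fold higher, with an 8-week sham level below the 2-week one by 0.43. Its second, dimmer probe gave log2 changes of 0.29 and 0.07. Aif1, the actin-bundling IBA1, was 1.29-fold and 1.53-fold higher. At 8 weeks, by the brightest probe, these 5 genes and Cx3cr1 were further above sham than the rest of the group.

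At 8 weeks the classical identifiers were nearer to sham than Ctss, Ms4a7, Laptm5, Mpeg1, Aif1 and Cx3cr1, by the brightest probe. Cd68, a lysosomal glycoprotein, was 1.24-fold and 1.32-fold higher, Adgre1, the classical macrophage surface antigen, 1.35-fold and 1.32-fold, and Lyz2, lysozyme, 1.35-fold and 1.22-fold. Csf1r, the receptor for the macrophage growth factors, was at 27 in sham and 33.1 in TAC at 2 weeks, and at 27.1 and 33.7 at 8 weeks, or 1.23-fold and 1.24-fold higher. Its other probes disagreed with each other, one giving log2 changes of 0.04 and -0.01 and one 0.37 and 0.25. Csf1, the growth factor itself, differed little, by 0.05 and 0.22, on a probe with 10 spots, and its TAC level at 8 weeks (3.07) lay below its sham level at 2 weeks (3.42). Its other measured probes gave changes of 0.27 and 0.32 and of 0.25 and 0.23, and on them sham at 8 weeks was above sham at 2 weeks, by 0.29 and 0.39. Il34, which encodes the other ligand of the receptor, had changes of 0.52 and 0.43. Csf2 and Csf3, which encode other colony-stimulating factors, were not well above background on any array, and Csf2rb, the shared receptor chain for GM-CSF and its relatives, was higher by 0.97 and 0.82.

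Resident markers were higher by smaller amounts. All 5 measured at 2 weeks were higher, with a median of 0.28, and 5 of the 6 at 8 weeks, with a median of 0.11. None passed 2-fold in either pair. Mrc1 was at 1.59 in sham and 2.29 in TAC at 2 weeks, and at 1.74 and 2.51 at 8 weeks. Lyve1, a hyaluronan receptor, was at 1.25 and 1.52 at 2 weeks and at 1.26 and 1.53 at 8 weeks, which is 1.21-fold and 1.22-fold. For both genes the sham arrays lay close together and both TAC arrays lay above them.

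Folr2, a folate receptor, was at 3.32 in sham and 3.56 in TAC at 2 weeks, and at 3.87 and 4.05 at 8 weeks. Its changes of 0.10 and 0.06 were smaller than the sham difference of 0.22, and the 2-week TAC level was below the 8-week sham level. Mertk, a receptor for engulfing dying cells, was at 0.621 and 0.685 at 2 weeks and at 0.624 and 0.68 at 8 weeks, changes of 0.14 and 0.12 that lie within the spot SD of 0.175. Cd163, a haemoglobin scavenger receptor, was dim, at 0.0741 in sham and 0.117 in TAC at 2 weeks and at 0.0737 and 0.0784 at 8 weeks. Its 1.58-fold difference at 2 weeks had no counterpart at 8 weeks, where it was 1.06-fold. Timd4, a phosphatidylserine receptor of long-lived resident cells, was at 0.113 in sham and 0.101 in TAC at 8 weeks and was not well above background at 2 weeks, so that the 8-week sham level was at least 1.88-fold higher than the 2-week one.

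Lyve1 is also made by lymphatic endothelium. Of 6 genes of that tissue, Ccl21a had no matched probe and Reln was not well above background on any array. The summed level of the list was 2.17 in sham and 2.68 in TAC at 2 weeks, and 2.37 in sham and 3 in TAC at 8 weeks. At 2 weeks 3 of 4 measured genes were higher, with a median of 0.36, and at 8 weeks 1 of 4, with a median of -0.34. Prox1, the defining transcription factor, had log2 changes of -0.56 and -0.47, and Mmrn1 of 0.02 and -0.20. Flt4, the receptor for lymphatic growth factors, was dim, was not well above background in sham at 2 weeks, and had changes of 1.08 and -0.48. Pdpn, which fibroblasts also make, had changes of 0.69 and 0.97. It was at 1.03 in sham and 1.66 in TAC at 2 weeks, and at 0.988 and 1.93 at 8 weeks. Pdpn is the largest part of the summed level and the only gene of the list higher at both times. The sum therefore cannot be read as an amount of lymphatic vessel. The part of lymphatic vessels in the Lyve1 values was not tested.

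A further 15 resident genes (14 with a probe) showed the same small sizes, with 11 of 14 higher at each time, medians of 0.24 and 0.20, and none over 2-fold. The complement genes C1qa, C1qb and C1qc were higher by 0.26, 0.45 and 0.41 at 2 weeks and by 0.56, 0.54 and 0.42 at 8 weeks. Vsig4, a complement receptor of resident cells, was higher by 0.80 and 0.72, and Igf1, a growth factor that cardiac macrophages and fibroblasts make, by 0.59 and 0.63. The dimmest Igf1 probe gave 0.43 and -0.05, and the other Igf1 probes were higher at both times. Brighter genes of the list changed little, namely Cbr2 (-0.03 and 0.16), Gas6 (0.09 and 0.06) and Ltc4s (0.04 and -0.08). Fcna was lower at both times (-0.07 and -0.15). Cd209f, a lectin, was lower by -0.21 and -0.77, with a sham difference of 1.5 between the time points.

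Markers of recruited cells were higher at 2 weeks in all 4 cases, with a median of 0.65, and at 8 weeks in 3 of 4, with a median of 0.20. None passed 2-fold in either pair. Ccr2, the receptor that lets monocytes leave the marrow and enter tissue, was at 0.101 in sham and 0.188 in TAC at 2 weeks, and at 0.0779 and 0.0981 at 8 weeks. It was 1.87-fold higher at 2 weeks and 1.26-fold at 8 weeks, and the 8-week TAC level was below the 2-week sham level. Ccr2 was dim, with a spot SD of 0.296. Its log2 changes of 0.90 and 0.33 became 0.30 and -0.03 with normexp background correction. Clec7a, the fungal sensor dectin-1, was at 0.55 and 0.819 at 2 weeks and at 0.362 and 0.382 at 8 weeks, or 1.49-fold and 1.05-fold higher. Both 8-week levels were below both 2-week levels.

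Lgals3, which encodes galectin-3, was the only member of this group over 1.5-fold higher at both times. It was at 1.82 in sham and 3.01 in TAC at 2 weeks, and at 1.91 and 3.58 at 8 weeks, which is 1.66-fold and 1.88-fold higher, with sham arrays only 0.07 apart in log2. Galectin-3 is also made by fibroblasts and other cells. The summed level of the 4 genes, 2.65 in sham and 4.24 in TAC at 2 weeks and 2.54 and 4.25 at 8 weeks, follows this gene at 8 weeks.

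Setting both groups side by side, the recruited median exceeded the resident median by 0.37 in log2 at 2 weeks and by 0.10 at 8 weeks. At 2 weeks the difference stayed positive under all alternatives tried, from 0.16 to 0.72. At 8 weeks it turned negative with normexp background correction (-0.12), with the 2-week sham array as comparator (-0.29) and with the mean of both sham arrays (-0.17), so no order of the groups at 8 weeks is given by these arrays. The ranges of both groups overlapped at each time. Whether the groups' difference itself changed between 2 and 8 weeks was not tested.

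**Figure D3:**
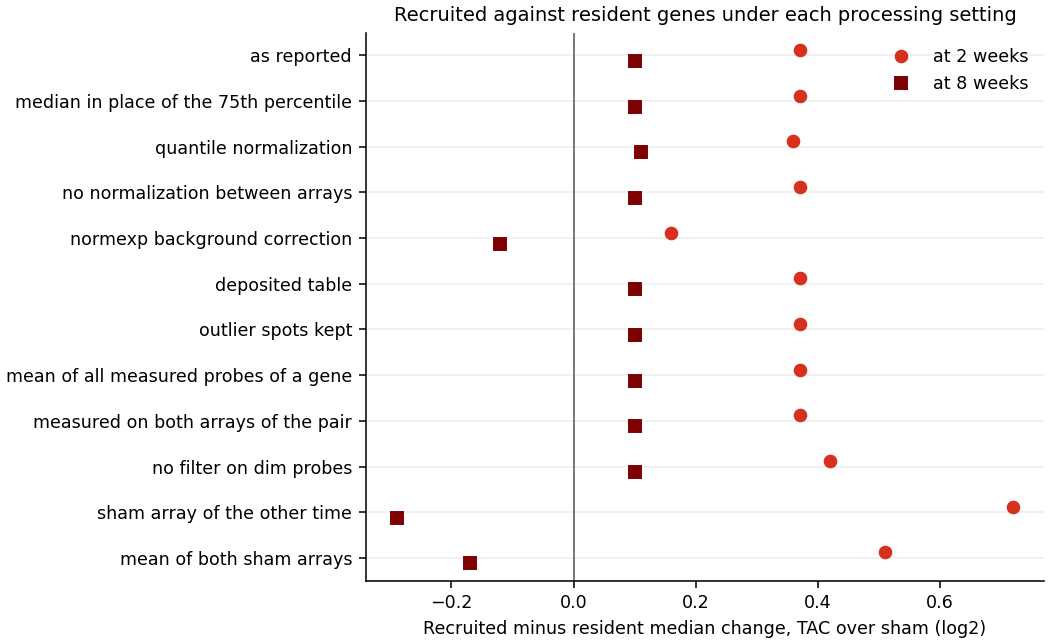
Median log2 change (TAC over sham) of the 4 recruited markers minus that of the measured resident markers, on the x axis, under each processing setting listed on the y axis. Circles are 2 weeks and squares 8 weeks. All circles lie right of 0, from 0.16 to 0.72, and the squares lie on both sides of 0, from -0.29 to 0.11.

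Another 12 genes of recruited monocytes (11 with a probe, Ly6c2 without) were less uniform. At 2 weeks 9 of 10 measured genes were higher with a median of 0.43, and at 8 weeks 6 of 10 with a median of 0.31. Thbs1, which encodes thrombospondin-1 and is made by many cell types, was higher by 1.98 and 2.01 in log2, and Hp, haptoglobin, by 1.91 and 0.23. Plac8, a gene of classical monocytes, was at 0.177 in sham and 0.334 in TAC at 2 weeks, and at 0.348 and 0.21 at 8 weeks. It was higher at 2 weeks and lower at 8 weeks, by 0.92 and -0.73. Its second probe, above background on only some arrays, gave 0.06 and -0.90. Ms4a4c was lower at both times on its brightest probe (-0.06 and -0.22), and another measured probe gave 0.10 and 0.17. Itgal changed by 0.09 and -0.25 and Ifitm6 by 0.46 and -0.17. The sham levels of Thbs1 differed by 1.14. Spp1, osteopontin, was not well above background on any array.

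The chemokines and adhesion molecules that draw monocytes were mixed at 2 weeks, with 5 of 9 higher and a median of 0.08, and mostly higher at 8 weeks, with 8 of 9 and a median of 0.34. These 9 genes include Ccr2 and Cx3cr1. Sham at 8 weeks over sham at 2 weeks gave a larger median for the list, 0.46, with 7 of 9 higher. Ccl8 was at 0.418 in sham and 0.731 in TAC at 2 weeks, and at 0.589 and 1.35 at 8 weeks, or 0.81 and 1.20 higher in log2. Ccl12 was level at 2 weeks (-0.03) and higher by 1.14 at 8 weeks. Ccl2, the main ligand of CCR2, changed by -0.09 and 0.34, less than the 0.55 between its sham levels. Cx3cl1, fractalkine itself, was higher by 0.55 and 0.50. Ccl7 was the only gene of the list lower at both times (-0.45 and -0.39), with a sham difference of 0.68. Vcam1 changed by -0.35 and 0.14 on its brightest probe and by -0.51 and 0.26 on its second.

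Fc receptors and their signalling partners were the most even group. All 4 were higher at both times, with medians of 0.50 and 0.42, and at 8 weeks the changes ran only from 0.41 to 0.44. Fcer1g, the shared gamma chain, was at 5.66 in sham and 7.06 in TAC at 2 weeks, and at 5.64 and 7.53 at 8 weeks. Tyrobp, the ITAM adaptor DAP12, was at 5.71 and 7.90 at 2 weeks and at 6.07 and 8.08 at 8 weeks, 1.38-fold and 1.33-fold higher. Fcgr1, the high-affinity IgG receptor, was 1.54-fold and 1.34-fold higher, and Fcgr3, a low-affinity IgG receptor, 1.44-fold and 1.36-fold. For each of these genes both TAC arrays were above both sham arrays.

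Sensing and scavenging genes were higher in all 5 cases at 2 weeks, with a median of 0.65, and in 3 of the 4 measured at 8 weeks, with a median of 0.80. Trem2, a lipid receptor that signals through DAP12, was at 0.711 in sham and 1.32 in TAC at 2 weeks, and at 0.851 and 1.37 at 8 weeks, which is 1.86-fold and 1.6-fold higher. Cd14, the co-receptor for endotoxin, was at 1.08 and 1.77 at 2 weeks and at 0.969 and 1.82 at 8 weeks, or 1.64-fold and 1.88-fold higher. Cd86, a co-stimulatory ligand for T cells, was at 0.319 and 0.494 at 2 weeks and at 0.287 and 0.573 at 8 weeks. Its 8-week change rounds to 2.00-fold and lay just under the threshold, which it passed with the array median or with quantile normalization in place of the 75th percentile. In all 3 genes the TAC levels lay above both sham levels.

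Gpnmb, a glycoprotein of lipid-laden macrophages, behaved differently. It was at 0.0653 in sham and 0.102 in TAC at 2 weeks, and at 0.124 and 0.12 at 8 weeks. The difference between the sham arrays (0.92 in log2) was larger than the TAC difference at either time (0.65 and -0.04). Msr1, scavenger receptor A, was at 0.0845 and 0.121 at 2 weeks on its brightest probe, and on its other probe it was well above background on both TAC arrays and on neither sham array.

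**Figure D4:**
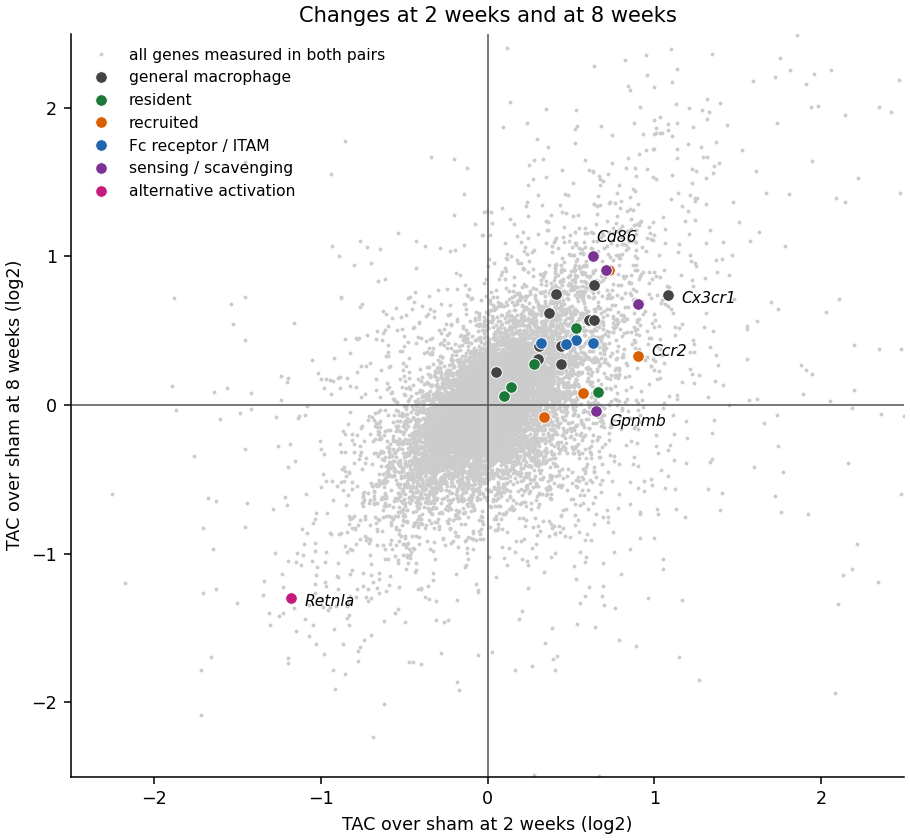
Log2 change of TAC over sham at 2 weeks (x axis) against 8 weeks (y axis) for genes measured in both pairs. Grey points are all genes, with 70 genes beyond the axes not drawn, and coloured points are the 29 macrophage and monocyte genes measured in both pairs, by role. Of these, 26 lie at the upper right, Chil3 and Gpnmb lie below 0 at 8 weeks, and Retnla lies in the lower left.

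Other cell types moved in the same arrays. Of the 6 genes shared by leukocytes, 5 were higher at each time, with medians of 0.45 and 0.35. Of 8 neutrophil genes, 5 of 6 measured were higher at 2 weeks (median 0.68) and 4 of 7 at 8 weeks (median 0.37). S100a8 and S100a9, which neutrophils and monocytes both make, rose more than any of the 33 genes. They were higher by 1.11 and 1.21 at 2 weeks and by 2.17 and 2.00 at 8 weeks. Retnlg was well above background on the TAC arrays alone, at least 1.04-fold higher at 2 weeks and 2.31-fold at 8 weeks. Camp was lower at both times by its brightest probe (-0.46 and -0.42). Elane changed by 0.01 and -0.02, and Ngp was not well above background anywhere. The summed neutrophil level was 9.77 to 10.9 in sham and 12.7 to 12.8 in TAC, and most of it is the Elane probe (6.77 to 7.42). Dendritic cell genes had medians of 0.30 and 0.16, with Xcr1 and Cd209a not above background on any array, and their summed level was 429 to 443 in sham and 370 to 418 in TAC. That sum is almost wholly 1 probe of Siglech (369 to 442), whose other probe was not well above background on any array. T and NK cell genes had medians of 0.05 and -0.16, with Cd3g, Cd8a, Klrb1c and Ncr1 not above background, and their summed level was 20.8 in each sham array and 18.6 to 20.9 in TAC. That sum is carried by the brightest probes of Cd4 (9.02 to 10.1), Nkg7 (4.87 to 5.91) and Cd3e (4.53 to 5.87), while the other Cd4 probe read 0.0889 to 0.112 and the other Nkg7 probe was well above background on the 8-week TAC array alone. None of these sums can be read as an amount of these cells.

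B cell genes had medians of 0.58 and 0.17 at summed levels of 0.663 to 0.828 in sham and 0.834 to 1.17 in TAC, and mast cell genes medians of 0.29 and -0.03, at 1.88 to 2.08 in sham and 1.93 to 2.35 in TAC, with Fcer1a not above background. Fibroblast genes had medians of 0.64 and 0.58 and a summed level of 167 to 191 in sham and 211 to 255 in TAC. Most of that sum is Dcn (143 to 203). Postn, the matrix protein periostin, had the largest changes, 2.29 and 2.92, and Dpt was lower by -0.01 and -0.24. Blood endothelial genes had medians of 0.23 and -0.06, at 49.6 to 56.7 in sham and 47.8 to 58.0 in TAC. Cardiomyocyte genes had medians of -0.20 and -0.19, and their summed level went from 5362 to 5678 in sham to 4700 to 5163 in TAC. Erythroid genes, which show blood left in the tissue, had medians of -0.28 and 0.08, with all 3 lower at 2 weeks and all 3 higher at 8 weeks, at summed levels of 343 to 352 in sham and 291 to 363 in TAC. The part of these cells in the macrophage values was not tested.

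**Figure D5:**
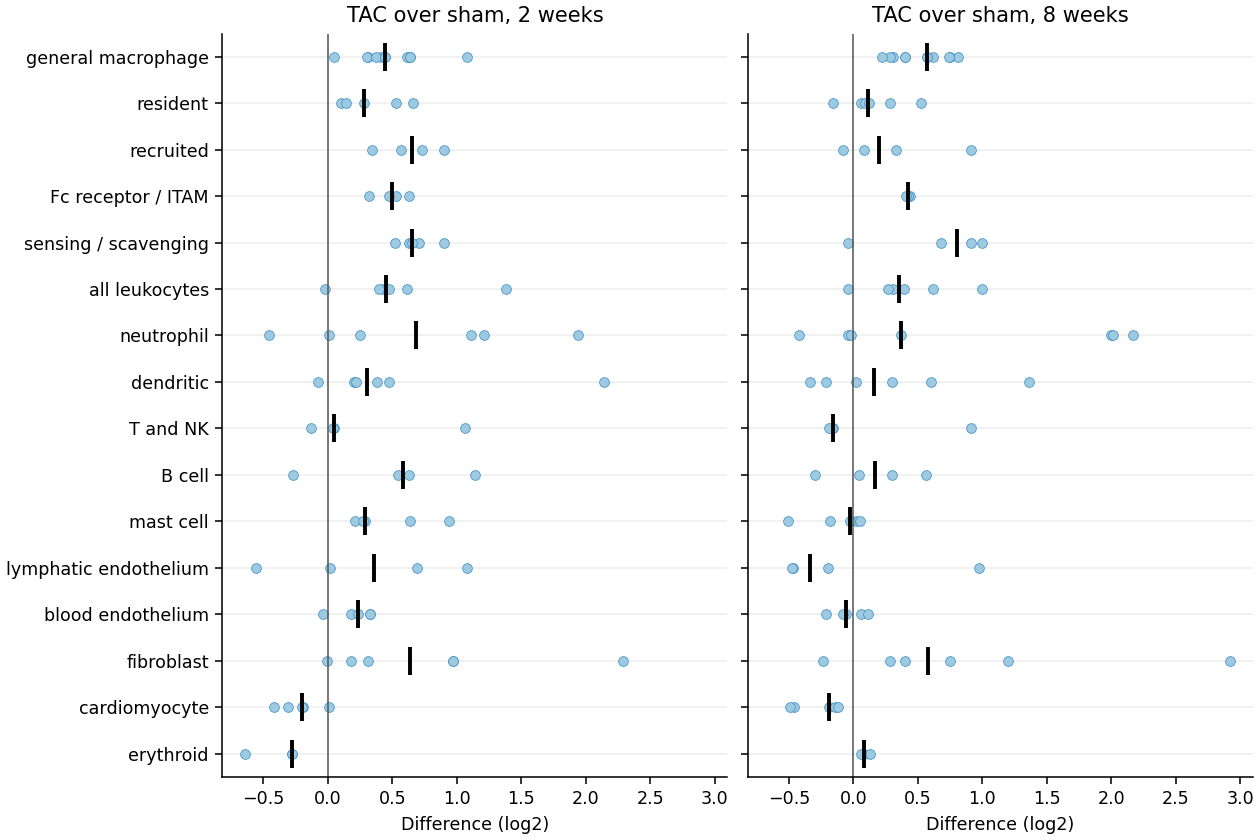
Log2 change of TAC over sham at 2 weeks (left) and 8 weeks (right) for genes of each list. Dots are genes well above background on at least 1 array of the pair and black bars are list medians. The macrophage groups drawn, which leave out alternative activation, have medians above 0 at both times. So do the leukocyte, neutrophil, dendritic, B cell and fibroblast lists. The cardiomyocyte median lies below 0 at both times.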

How the data were processed

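Total RNA of whole hearts was labelled with Cy3 and hybridised to single-colour SurePrint G3 Mouse GE 8x60K arrays, 1 per condition, and all 4 lay on 1 slide in 1 scan, so neither could be tested as a batch. The authors made the deposited intensity files with Agilent Feature Extraction, version 10.7.3.1 per the file headers and 9.1 per the labels. The processed signal in them is an intensity per spot after background and trend correction, with no scaling between arrays. The deposited series table holds the same intensity multiplied by a constant per array. The methods name GeneSpring GX11 and do not state its settings.

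From the processed signal, log2 was taken, outlier spots were dropped, spots of a probe were averaged and each array was scaled by subtracting its own 75th percentile, control probes left out. Of the 55681 probes kept, 32342 carry a RefSeq or Ensembl transcript, and 29501 were matched to 21739 current symbols (GRCm38.p6 RefSeq, then GENCODE). The array grid is on mm9, so no probe coordinates are given. With 1 array per condition no p-value was computed within a time point, and a limma fit with surgery and time as additive terms was added after the values were seen. Replicate error is absent, and the number of arrays limits the precision. Genes were named by this rule: full values for members over 2-fold at either time and for the resident and recruited markers, the rest by ranges and counts, with further values where they show how a group varied. The members, lists and motifs were chosen with earlier results of these data known, and the adipocyte and IL-4 lists after Retnla had been seen. The code was tested on simulated data. Python 3.11.15 and limma (3.58.1, normexp with an offset of 50) were used. The alternatives were other scalings and background correction, the deposited table, outlier spots, probe choice, the filter on dim probes, the fold threshold and the comparator.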

Additional observations from a re-analysis of the deposited data

Results flagged for a closer look

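Among the macrophage and monocyte genes measured on all arrays, Chil3 and Gpnmb had changes of opposite sign at the time points. Chil3 changed by 0.34 in log2 at 2 weeks and by -0.08 at 8 weeks, and Gpnmb by 0.65 and -0.04. Both 8-week values are within the spot SD of 0.296 for genes this dim. Of the further lists, Plac8 was higher in TAC at 2 weeks (0.92) and lower at 8 weeks (-0.73), its sham levels differed by 0.98, and its second probe gave 0.06 and -0.90. The difference between the time points was not tested for any of these genes.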

How the results depend on the processing

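The median change of the 33 genes stayed above 0 under every alternative, from 0.33 to 0.55 at 2 weeks and from 0.37 to 0.57 at 8 weeks. The values that moved beyond the spot SD of 0.155 were 0.33 at 2 weeks with normexp background correction, whose offset shrinks changes of dim genes by construction, and 0.57 at 8 weeks with no normalization, where the median of all genes was 0.16. The sham difference ran from -0.02 to 0.11. The recruited minus resident median became 0.16 at 2 weeks and -0.12 at 8 weeks with normexp, 0.72 and -0.29 with the sham array of the other time, and -0.17 at 8 weeks with the mean of both sham arrays.

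Genes over the threshold upwards at 2 weeks numbered 1 in the report, 0 with normexp, 12 at 1.5-fold, 0 at 3-fold, 4 with the other sham array (Cx3cr1, Ccr2, Clec7a and Msr1) and 2 with the mean of the sham arrays (Cx3cr1 and Ccr2). At 8 weeks they numbered 0, 1 with the array median and 1 with quantile normalization (Cd86 in both), 3 with no normalization (Lgals3, Cd14 and Cd86) and 8 at 1.5-fold. Genes over the threshold downwards (1, Retnla) became 0 at 2 weeks with normexp, 0 at both times at 3-fold and 0 at 8 weeks with the other sham array. Where these counts changed, the cause was not tested. Retnla ranged from -1.59 to -1.0 at 2 weeks and from -1.32 to -0.88 at 8 weeks. Of the other values of single genes, 562 moved by less than the spot SD and 98 by more, and none over 2-fold changed sign. Some smaller changes did change sign between settings. At 2 weeks these included Gpnmb (-0.28 to 0.67) and Folr2 (-0.12 to 0.13). At 8 weeks they included Clec7a (-0.53 to 0.24), Cd163 (-0.16 to 0.26), Csf1 (-0.16 to 0.39), Gpnmb (-0.07 to 0.88) and Ccr2 (-0.04 to 0.5). Arrays could not be paired by replicate number, because the conditions compared share only 1. With the time points as blocks, limma called 0 members. Spi1, Arg1, Timd4 and Msr1 are limited by signal over background, and differences between mice could not be seen in pooled RNA.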
